A study of Mus musculus with 5 samples.

Results

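The chromosome 1 repeat gene cluster around C130026I21Rik was examined in 3 lists of chromatin immunoprecipitation and sequencing (ChIP-seq) peaks. Its members are the peaks whose region starts between 85000000 and 86000000 on chromosome 1 (build mm10), and within these the peaks that the authors place inside C130026I21Rik or Gm2619, that is, at a gene distance of 0. The window held 37 of the 2548 peaks of the 3 lists, and 27 of these 37 lay inside C130026I21Rik or Gm2619. The wild-type (WT) list for acetylated lysine 27 of histone H3 (H3K27ac) gave 15 of its 857 peaks, the H3K27ac list of Egr1-deficient (KO) cells 7 of 844, and the WT list for EGR1 15 of 847. Window and genes were selected on their measured number of peaks, which differs between the WT and KO lists, so the numbers are a description and carry no test.

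The cells were dendritic cells of C57BL/6J mice, grown from bone marrow with 10 ng/ml GM-CSF and collected on day 6. Every group, WT and KO alike, had received 100 ng/ml lipopolysaccharide (LPS) and 20 mM L-(+)-lactic acid for 24 h, so that no unstimulated or LPS-only cells stood beside them. The labels name the KO cells EGR1-deficient without giving the allele, and give no number of animals. Each group was 1 library, so no difference between lists has a replicate check. Of 15 dendritic cell markers, Csf2ra, which encodes a subunit of the receptor for GM-CSF, had a peak in or within 2 kb of the gene in each list, and markers such as Itgax, Cd74 and Zbtb46 had none. Macrophage markers had a peak at 0 of 5 genes in each list, neutrophil markers at 0 of 5 and lymphocyte markers at 0 of 6. Of 49980 RefSeq genes 0.566% overlapped a WT H3K27ac peak, 0.542% a KO H3K27ac peak and 0.572% an EGR1 peak. Counts of 0 in lists this short are therefore near the background. Csf2ra is 1 gene, with a peak in WT and KO lists alike, and neither it nor the counts of 0 check the cell type.

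H3K27ac marks active promoters and enhancers, and EGR1 is a zinc finger transcription factor that is made within minutes to hours of many stimuli and binds GC-rich sequence. The cluster lies beside Sp100, Sp110 and Sp140, genes of the speckled protein family, whose products are components of nuclear bodies and carry domains that read chromatin. In myeloid cells this family is known for its induction by interferon and for its part in defence against intracellular bacteria. C130026I21Rik is a protein-coding gene in RefSeq and Gm2619 a transcribed pseudogene. They stand among genes and pseudogenes that are near copies of one another, and the upstream sequences show how close these copies are. The 250 bases before the RefSeq transcription start are printed for C130026I21Rik (chr1:85270567-85270816, minus strand), A530032D15Rik (chr1:85109854-85110103, minus strand) and Sp140 (chr1:85600453-85600702, plus strand), on GRCm38.p6, the assembly of mm10. They are given 5′ to 3′ along each gene because they are the clearest view of the repeats in the sequences at hand, and capitals mark the letters GTGGGCG, the core of the EGR binding motif.
C130026I21Rik: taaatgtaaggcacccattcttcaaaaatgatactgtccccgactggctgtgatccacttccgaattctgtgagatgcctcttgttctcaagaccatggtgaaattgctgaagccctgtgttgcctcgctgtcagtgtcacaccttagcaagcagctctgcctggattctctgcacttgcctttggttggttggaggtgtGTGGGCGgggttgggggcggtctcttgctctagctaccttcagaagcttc
A530032D15Rik: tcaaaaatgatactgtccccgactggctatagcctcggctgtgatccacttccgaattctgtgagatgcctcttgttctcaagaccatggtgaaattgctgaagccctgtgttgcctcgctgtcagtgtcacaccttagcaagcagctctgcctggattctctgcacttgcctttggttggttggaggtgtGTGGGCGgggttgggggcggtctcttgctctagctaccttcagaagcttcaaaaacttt
Sp140: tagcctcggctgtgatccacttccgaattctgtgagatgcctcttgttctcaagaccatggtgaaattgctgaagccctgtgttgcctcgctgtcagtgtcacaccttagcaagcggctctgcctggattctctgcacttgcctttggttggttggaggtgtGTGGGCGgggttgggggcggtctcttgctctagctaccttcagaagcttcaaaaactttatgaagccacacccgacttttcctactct

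The upstream sequences of C130026I21Rik and A530032D15Rik aligned over 229 bases with 0 mismatches and 12 gap bases, and shared an unbroken run of 205 bases. C130026I21Rik and Sp140 aligned over 205 bases with 1 mismatch and 0 gap bases, and A530032D15Rik and Sp140 over 221 bases with 1 mismatch and 0 gap bases. A search of 32850 other promoters in the RefSeq table for a run of 30 bases shared with C130026I21Rik, on either strand, found 2, those of A530032D15Rik and Sp140. A second family of copies joins Gm7609, a protein-coding gene of the cluster, to Sp100. Their upstream sequences aligned over 248 bases with 1 mismatch and 0 gap bases at 1 of the 2 Sp100 starts. The letters GTGGGCG, searched on both strands and chosen after the sequences were seen, occur in the upstream 250 bases of 7.02% of the 32851 promoters. They were found in 3 of the 10 promoters of the cluster, the 3 printed here, where they overlap the letters of a GC box, GGGCGG (in 32.7% of promoters). These 3 are near copies of one another, so they are not separate occurrences to set beside that 7.02%. The 10 also count Sp110 and Sp100 at more than 1 start each. The longer letters GCGTGGGCG, the EGR consensus, occur in 0.536% of promoters and in 0 of the 10. No peak of any list lay on these 3 promoters. The nearest WT H3K27ac peak ended or began 1407 bp from the C130026I21Rik promoter window of 250 bases before and 50 after the start, and the nearest EGR1 peak 1411 bp from it. The nearest KO H3K27ac peak was 7976 bp away. This start lies at 85270566, inside the RefSeq gene, which reaches to 85282883, and the table holds no other start for it.

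The promoter window of the long noncoding RNA gene A530040E14Rik was the one window of the cluster under a peak. The WT H3K27ac peak at chr1:85105586-85105911 covered 69 bases of it and the EGR1 peak at chr1:85105564-85105892 covered 50. The KO list had no peak there, and its nearest lay 30050 bp away. The 250 bases before the start (chr1:85105843-85106092, plus strand, GRCm38.p6) are printed 5′ to 3′ because they are the stretch of peak sequence that the RefSeq table holds, with the 69 bases inside the WT H3K27ac peak in capitals.
A530040E14Rik: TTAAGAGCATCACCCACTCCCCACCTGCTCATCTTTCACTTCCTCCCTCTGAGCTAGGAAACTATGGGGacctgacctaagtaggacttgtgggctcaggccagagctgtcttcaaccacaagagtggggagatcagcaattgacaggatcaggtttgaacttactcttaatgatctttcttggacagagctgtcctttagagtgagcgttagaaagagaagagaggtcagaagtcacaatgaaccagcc
Peaks on a promoter window of this table made up 1.75% of the whole WT H3K27ac list, 1.54% of the KO list and 1.89% of the EGR1 list.

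Peaks of the cluster were low in score and were fewer in the KO list. The authors' peak shape score, whose scaling is not given, is used here to describe peaks within a list, and scores set side by side across lists are a description only. This score was at least 1.65 in each list. In the window a score of 1.65 carried an authors' p of 0.05 in each list, and p was lower at higher scores. Score and p thus rank these peaks alike, and a limit on either is a limit on both. The median score over the window was 1.85 for WT H3K27ac, 2.06 for KO H3K27ac and 1.87 for EGR1, against 2.86, 2.96 and 2.85 over the whole lists. The top score was 4.23 (rank 278 of 857) in WT H3K27ac. It was 2.95 (rank 423 of 844) in the KO list and 4.47 (rank 249 of 847) in the EGR1 list. The strongest peaks of each list thus lay elsewhere. At an authors' p of 0.01 or lower the window held 3 WT H3K27ac, 2 KO H3K27ac and 5 EGR1 peaks, so the difference between the H3K27ac lists lay mostly in weaker peaks. The EGR1 peak at chr1:85626699-85627019 (score 2.22) is counted at a rounded p of 0.01 and may lie above the limit. Depth is unknown, since the lists hold no read counts, and how reads that match several copies were placed was not tested. C130026I21Rik held 7 WT H3K27ac, 4 KO H3K27ac and 6 EGR1 peaks, and Gm2619 held 4, 1 and 5. The peaks lay in 18 separate loci, of which 5 were in all 3 lists, 8 in WT H3K27ac and EGR1 but not KO, 2 in WT H3K27ac alone, 1 in KO H3K27ac and EGR1, 1 in KO H3K27ac alone and 1 in EGR1 alone. From the first to the last peak of any list they covered 622 kb. Outside this stretch chromosome 1 was empty for a long way: the last WT H3K27ac peak before the window scored 3.15 and began 11.15 Mb before its edge, and the first after it scored 2.29 and began 2.28 Mb beyond. In KO H3K27ac the peaks on either side scored 1.87 and 2.06, at 6.43 and 2.28 Mb, and in EGR1 3.21 and 2.24, at 11.15 and 2.28 Mb. The window's edges therefore cut through no group of peaks.

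**Figure D1:**
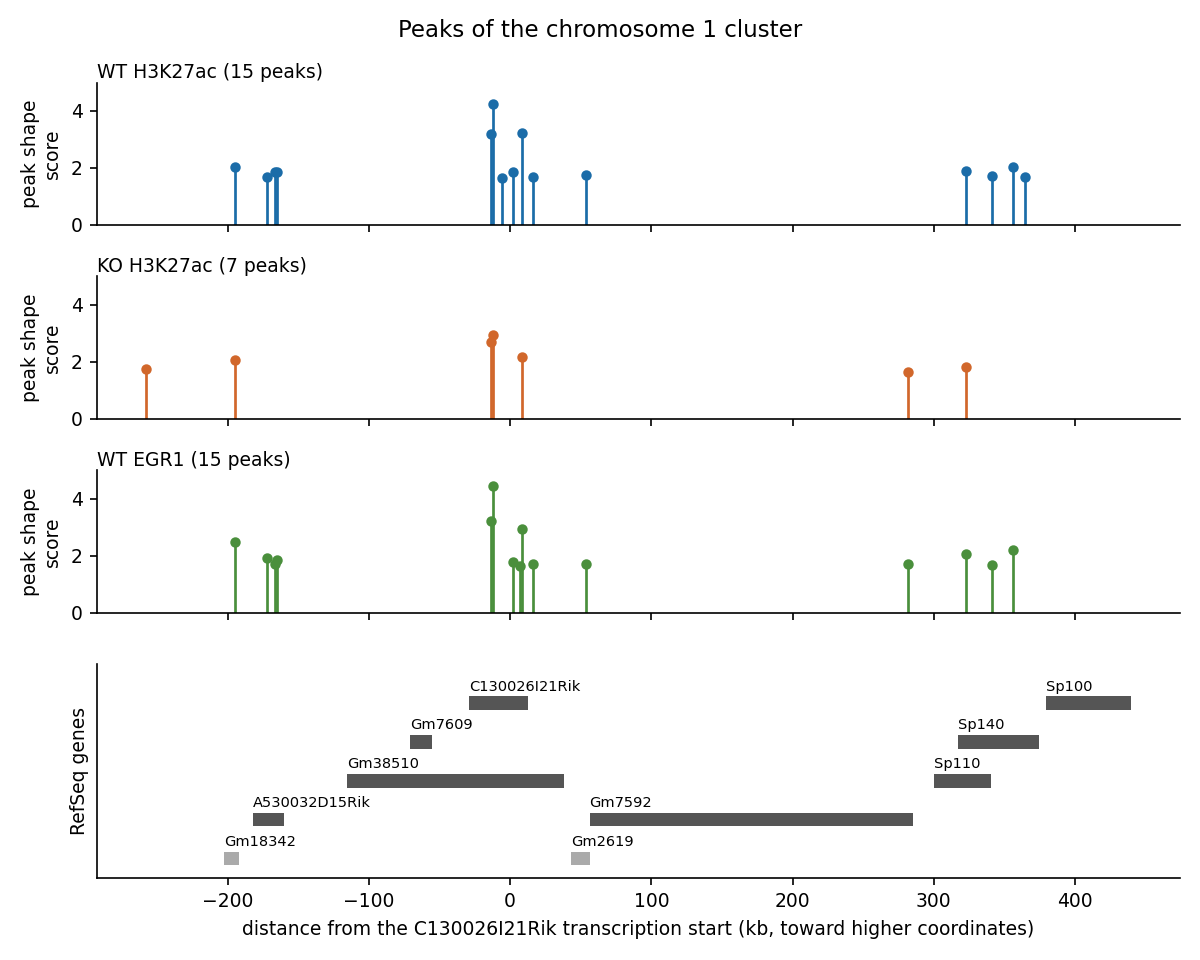
Peaks of each list by the distance of their centre from the C130026I21Rik transcription start (x axis, kb) and their peak shape score (y axis), above 10 RefSeq genes (dark bars protein-coding, light bars pseudogenes). Of the 15 EGR1 peaks 13 stand at a WT H3K27ac peak, and the 7 KO H3K27ac peaks leave several of these positions empty.

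The highest scores of the cluster lay at 3 loci in or beside C130026I21Rik, and there the KO score was the lowest of the 3. The highest locus, which the authors place in C130026I21Rik, was at chr1:85258216-85258567 in WT H3K27ac and scored 4.23 there, 2.95 in KO H3K27ac and 4.47 in EGR1. Its neighbour at chr1:85257112-85257479 scored 3.20 in WT H3K27ac, 2.69 in KO cells and 3.23 for EGR1. A further locus, at chr1:85278817-85279134, which the authors place in Gm2619, scored 3.22 in WT H3K27ac, 2.16 in KO cells and 2.93 for EGR1. At these loci the WT lists stood close together and the KO list stood below them. The 3 loci were picked for their high scores and the scaling of each list is not known, so this order was not tested. RefSeq coordinates put all 3 inside C130026I21Rik (85241286 to 85282883) and inside Gm38510, a protein-coding gene that overlaps it. A locus listed for all 3 at chr1:85075496-85075830 lay within C130026I21Rik by the authors and within the pseudogene Gm18342 by RefSeq. It scored 2.02 in WT H3K27ac, 2.06 in KO cells and 2.49 for EGR1, so the KO score was not the lowest there.

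The loci in C130026I21Rik and Gm2619 that were listed in WT cells and missing from the KO list scored between 1.65 and 1.93. A530032D15Rik, a protein-coding gene in RefSeq that lies inside the authors' C130026I21Rik, held 3 of them. The locus at chr1:85098017-85098406 scored 1.68 in WT H3K27ac and 1.93 in EGR1, that at chr1:85104183-85104587 scored 1.84 and 1.73, and that at chr1:85105586-85105911, which reaches the A530040E14Rik promoter, scored 1.85 and 1.87. The KO list had no peak in A530032D15Rik, and its nearest peak lay 22224, 28383 and 29771 bp away. In Gm2619 as the authors place it, chr1:85272224-85272620 scored 1.85 in WT H3K27ac and 1.78 in EGR1, chr1:85286228-85286657 scored 1.68 and 1.72, and chr1:85323812-85324126 scored 1.76 and 1.71. Of these the last was the one locus inside Gm2619 by RefSeq coordinates (85313407 to 85327379). The single WT H3K27ac locus of C130026I21Rik with no partner in either other list was chr1:85264414-85264740, with a score of 1.65. EGR1 alone had chr1:85277313-85277626, in Gm2619 by the authors, also at 1.65. Both sat at the lowest score that any list holds.

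KO H3K27ac had 1 locus of its own, at chr1:85012756-85013076 with a score of 1.74, which the authors place in C130026I21Rik. By RefSeq it overlaps the end of Rpl19-ps1, a pseudogene of a ribosomal protein gene, and the nearest WT H3K27ac peak was 62419 bp away. KO H3K27ac (chr1:85552534-85552850, score 1.65) and EGR1 (chr1:85552538-85552869, score 1.70) shared a locus that WT H3K27ac did not list. It lay inside Gm7592, a protein-coding gene, by RefSeq, and 1956 bp from Gm7592 by the authors' distance in the KO list. Its EGR1 peak is the one of the window that overlapped a KO but not a WT H3K27ac peak.

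**Figure D2:**
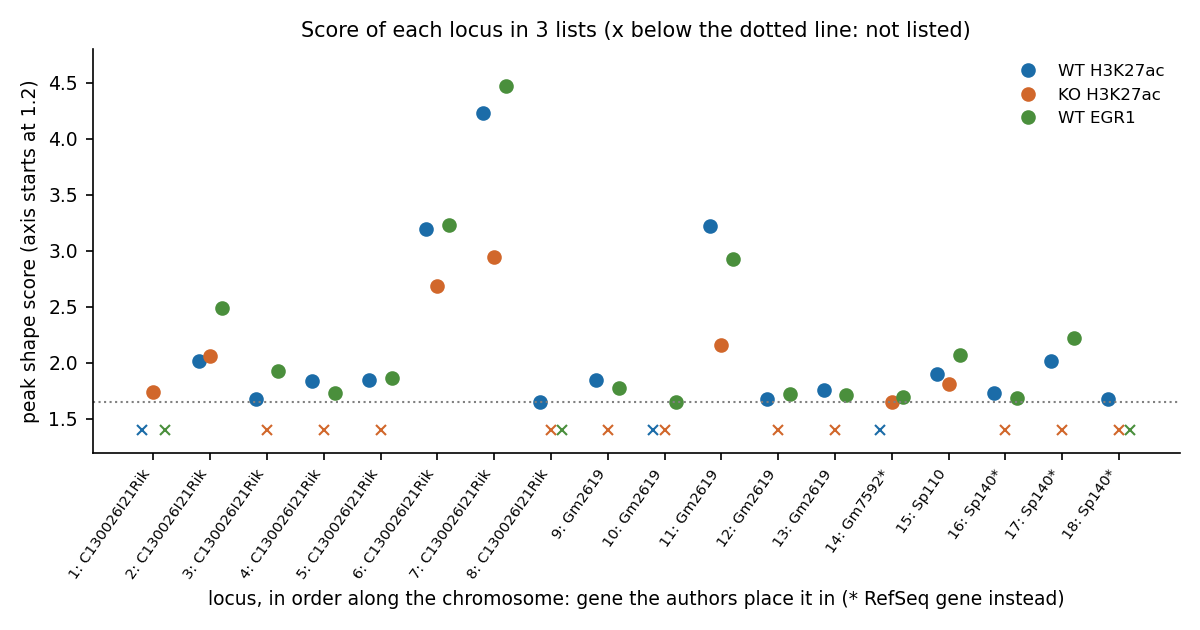
Peak shape score (y axis, which does not start at 0) of each of the 18 loci in order along the chromosome (x axis) in the 3 lists, with crosses for loci that a list does not hold and a dotted line at 1.65, the lowest listed score. KO crosses stand mostly at loci whose WT scores lie near the dotted line, and at the 3 highest loci the KO points lie under both WT points.

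At the Sp110 and Sp140 end of the cluster 1 locus was in all lists and 3 were missing from the KO list. Sp110, known as an interferon-induced nuclear body gene, held the shared locus, at chr1:85593619-85593945, with scores of 1.90 in WT H3K27ac, 1.81 in KO cells and 2.07 for EGR1. Sp140, which encodes a nuclear body protein with a bromodomain, overlaps this locus in RefSeq and held 3 more, which the authors place outside any gene. They scored 1.73 in WT H3K27ac and 1.69 in EGR1 (chr1:85611947-85612282, 50 bp from Gm10552), 2.02 and 2.22 (chr1:85626702-85627030), and 1.68 in WT H3K27ac alone (chr1:85634899-85635217). The KO list held none of the 3, and the one at chr1:85626702-85627030 scored above the shared Sp110 locus in both WT lists. Sp100 and Gm7609 overlapped no peak of any list. Of a list of 14 genes of the SP100 family and copies in the cluster, 4 had a WT H3K27ac peak inside or within 2 kb by the authors' distances (Sp110, C130026I21Rik, Gm2619 and Gm10552), 4 a KO H3K27ac peak (Gm7592 in place of Gm10552) and 5 an EGR1 peak (all of these). By RefSeq coordinates the numbers were 5, 4 and 6. The list holds both selected genes and neighbours of window peaks, so these numbers follow in part from the selection. Of 8 genes of PML nuclear bodies, the structures that SP100 belongs to, 0 had a peak within 2 kb in any list. Under 1% of RefSeq genes overlapped a peak of each list, so this says nothing particular about them.

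The share of peaks found again in another list was then set beside the same share over the whole list. Of the 15 WT H3K27ac peaks of the window 5 shared at least 1 bp with a KO H3K27ac peak. This was 33.3% (95% Wilson interval 15.2 to 58.3, counting error over peaks only), where 86.8% of the whole list did. The window was selected on numbers of peaks that differ between these lists, 15 in WT and 7 in KO H3K27ac. A lower share in it therefore follows from the selection, and the shares and intervals here carry no test. Inside C130026I21Rik or Gm2619 the share was 4 of 11, or 36.4% (15.2 to 64.6). The shares were also taken by score, since over the whole list weaker WT peaks had a KO partner less often. Under a score of 2, 1 of 10 window peaks overlapped a KO peak, or 10.0% (1.79 to 40.4), against 53.8% of 195 peaks of the list. The 1 was the Sp110 locus, and inside C130026I21Rik or Gm2619 it was 0 of 7, for which the Wilson interval reaches 35.4%. At scores of 2 to under 3 it was 1 of 2, against 90.8% of 251, and at scores of 3 to under 5 it was 3 of 3, against 100% of 191. The 5 WT peaks with a KO partner scored 1.90 to 4.23 and the 10 without scored 1.65 to 2.02, so the groups overlapped in a narrow range. Read from the KO side, 5 of 7 window peaks had a WT H3K27ac partner, 71.4% (35.9 to 91.8) where the list had 88.3%.

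**Figure D3:**
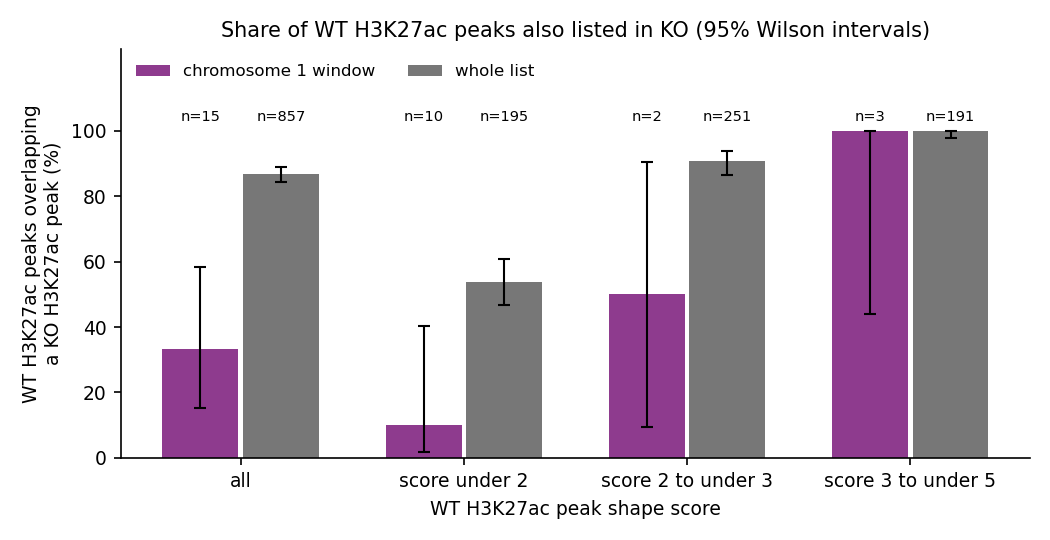
Percentage of WT H3K27ac peaks that overlap a KO H3K27ac peak (y axis), for all peaks and by WT peak shape score (x axis), in the chromosome 1 window and in the whole list, with 95% Wilson intervals. Under a score of 2 the window stands at 10.0% and the list at 53.8%, while at scores of 3 to under 5 both stand at 100%. The window was selected on numbers of peaks that differ between these lists, so its shares carry no test.

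EGR1 peaks of the cluster mostly lay on WT H3K27ac peaks, as EGR1 peaks did over the whole list, and less often on KO H3K27ac peaks. Of the 15 EGR1 window peaks 13 lay on a WT H3K27ac peak, 86.7% (62.1 to 96.3) where the EGR1 list had 97.0%. A KO H3K27ac peak lay under 6 of the same 15, 40.0% (19.8 to 64.3) where the list had 87.7%. Under an EGR1 score of 2, 7 of 9 window peaks had a WT partner (77.8%, against 87.7% of the list) and 1 of 9 a KO partner (11.1%, against 57.9%). Of the WT H3K27ac window peaks 13 of 15 had an EGR1 partner (list 95.9%), and of the KO window peaks 6 of 7 (list 88.2%). The exceptions to the first overlap were the peak in Gm7592 by RefSeq and the peak at chr1:85277313-85277626, with EGR1 scores of 1.70 and 1.65. Over the whole lists 97.0% of EGR1 peaks lay on a WT H3K27ac peak and 95.9% of WT H3K27ac peaks on an EGR1 peak. These lists thus hold largely the same peaks, and the EGR1 list adds little separate evidence on WT against KO. Since nearly every EGR1 peak of the series lies on a WT H3K27ac peak, the KO shares of these lists are not independent of each other. The KO shares of the window also follow in part from its selection.

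Where a locus was in both H3K27ac lists, its score was mostly lower in KO. Over the 5 matched window peaks the median difference, KO minus WT, was -0.51, with a range of -1.28 to 0.04, and 4 of 5 were lower in KO. Over the 739 matched peaks of the whole lists the median was -0.03, with a range of -3.59 to 2.3, and 53.3% were lower in KO. Over the 465 with a WT score up to 4.23 the median was -0.04, with a range of -1.28 to 2.02. The lower end of that range, -1.28, was the locus at chr1:85258216-85258567 in C130026I21Rik, whose own WT score set the limit of 4.23. The largest drop of the whole lists, -3.59, lay elsewhere. EGR1 minus WT H3K27ac had a median of 0.03 over 13 matched window peaks (range -0.29 to 0.47), against -0.04 over 814. The score moves with the authors' p and is not a read count, and the labels and headers do not say how it was scaled. A lower score in 1 list is therefore not a measured loss of acetylation.

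Most peaks of the cluster were longer than the median of their list: 12 of 15 WT H3K27ac peaks, 12 of 15 EGR1 peaks and 6 of 7 KO peaks were. The WT H3K27ac window peaks measured 315 to 430 bp, with a median of 335 bp, and 6 of 15 were 350 bp or longer, or 40.0%, against 20.2% of the list. The longest, 430 bp, was at chr1:85286228-85286657 in the authors' Gm2619 and was 397 bp long in EGR1. EGR1 window peaks measured 314 to 397 bp, and 5 of 15 reached 350 bp, against 19.4% of the list. KO H3K27ac window peaks measured 306 to 351 bp, and 1 of 7 reached 350 bp, against 13.2% of the list. Of the 6 long WT peaks 4 lay at loci that the KO list lacks, the same share as of all window peaks (10 of 15). Those in A530032D15Rik measured 390 and 405 bp. In matched pairs the KO peak minus the WT peak was a median of -14 bp in the window and -12 bp over the whole lists, so KO peaks of the cluster were shorter to a similar degree as elsewhere. Centres of matched peaks differed by a median of 31 bp between KO and WT H3K27ac in the window and 7 bp in the lists, and by 8 bp and 1 bp between EGR1 and WT H3K27ac.

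Because 3 starts of the cluster have near-identical upstream sequence, the peaks were also placed by their distance from these starts. Behind the A530032D15Rik start, WT H3K27ac peaks were centred 4100, 5511 and 11681 bp downstream. Behind the C130026I21Rik start they were centred 5993, 12157 and 13295 bp downstream. Behind the Sp140 start they were centred 11396 and 26174 bp downstream. Each of the 3 starts thus had a peak 11396 to 12157 bp behind it, a range picked out after the distances were seen and not tested. The KO list had peaks 12167 and 13250 bp behind the C130026I21Rik start and had no peak within 30 kb behind the starts of the other two copies. Whether the peaks themselves lie on copied sequence was not tested, since no genome sequence was used here.

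**Figure D4:**
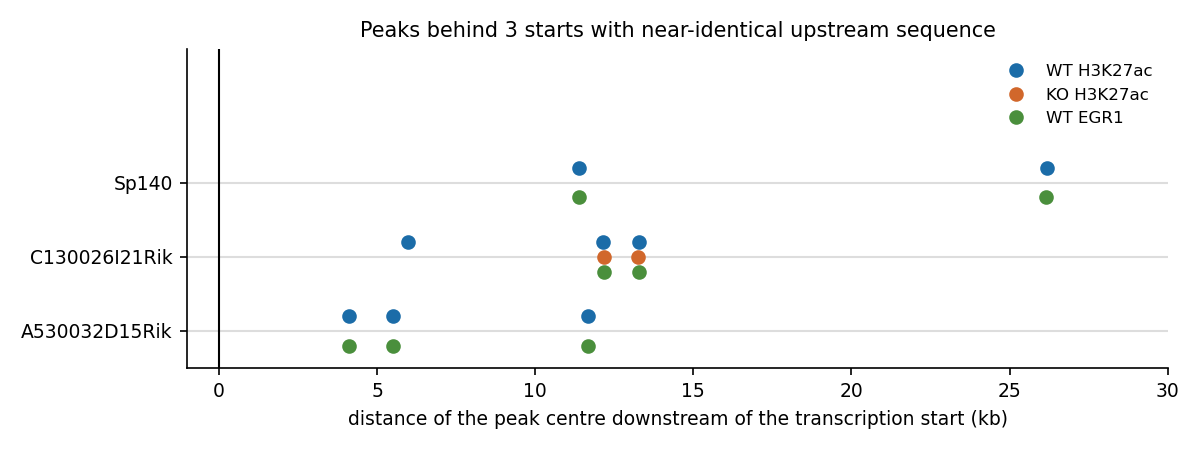
Peak centres by their distance downstream of the RefSeq transcription start (x axis, kb) of A530032D15Rik, C130026I21Rik and Sp140, with 1 line of points per list. WT H3K27ac and EGR1 show a peak between 11390 and 12171 bp behind each start, and KO H3K27ac shows one behind C130026I21Rik.

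The gene named for a peak depended on the annotation. The authors' C130026I21Rik reaches from the locus at 85012756 to that at 85264740, while RefSeq has the gene from 85241286 to 85282883. Of the 17 peaks of all lists that the authors place in C130026I21Rik, 7 lay in it by RefSeq, and of the 10 they place in Gm2619, 2 lay in Gm2619 and 6 in C130026I21Rik by RefSeq. Counted by RefSeq coordinates, C130026I21Rik held 5 WT H3K27ac, 3 KO H3K27ac and 5 EGR1 peaks and Gm2619 held 1, 0 and 1. All 37 peaks overlapped a RefSeq gene, and 9 of the 29 RefSeq genes of the window held a peak. The authors also name Gm29284, Gm16038, G530012D18Rik and Gm17017 as neighbours of window peaks, and no list has a peak inside any of these. The table of RefSeq genes gives no exons, so exon and intron were not assigned.

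Among genes with several peaks, the pair of C130026I21Rik and Gm2619 had fewer peaks in KO. The authors place at least 3 WT H3K27ac peaks inside 16 genes, and the other genes had as many KO peaks as WT peaks or more. The 5 genes most like C130026I21Rik in their number of peaks over the 3 libraries, by the sum of absolute differences, were Gm21738 (5 WT H3K27ac, 5 KO H3K27ac and 5 EGR1 peaks, sum 4), Erdr1 (5, 6 and 5, sum 5), Pisd-ps1 (4, 4 and 4, sum 5), Drg1 (4, 4 and 4, sum 5) and Gm2420 (3, 4 and 3, sum 7, the nearest in highest WT score among the genes with that sum). Sfi1, a duplicated gene with more peaks, had 21 of 23 WT H3K27ac peaks overlapped in KO, or 91.3% (73.2 to 97.6), against 4 of 11 for C130026I21Rik and Gm2619. These shares are not matched for score. Under a score of 2 it was 2 of 3 for Sfi1 and 0 of 7 for the pair. At scores of 2 to under 3 it was 9 of 10 and 1 of 1, and at 3 to under 5 it was 7 of 7 and 3 of 3. C130026I21Rik and Gm2619 were selected on their numbers of peaks, which differ between WT and KO, so their place among these genes follows from the selection. With 1 library per genotype these gene counts were not tested.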

How the data were processed

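Peaks of 3 ChIP-seq libraries were analysed, 1 each for WT H3K27ac, KO H3K27ac and WT EGR1. The 2 input samples were not analysed here. The authors deposited 1 list of called peaks per library, on mm10 per the submitters' processing notes. Per the file headers, a row gives the position, centre and length of 1 peak, the authors' peak shape score, their p-value, and the nearest gene 5′ and 3′ with distances. The p-values the authors deposited reach 0.05 and are rounded, and the deposited scores start at 1.65. Not given in the sources used here are the peak caller, its filters, the use of input DNA and the placing of reads that match several copies of a repeat. The lists hold no read counts, so depth is unknown.

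Peaks of different lists were called overlapping from 1 shared bp, and compared by score, length and centre where each had exactly 1 partner. The overlap and matching steps were tested on simulated data. Gene names were the authors', with a distance of 0 read as inside. RefSeq genes and promoter sequences (GRCm38.p6) were set beside them. Of the 9 gene names beside window peaks, 4 were in the RefSeq table. Upstream sequences were aligned locally with Biopython 1.88 (match 1, mismatch -1, gap opening -2, gap extension -0.5). Tables were made in Python 3.11.15 (pandas 2.3.3, numpy 2.4.6), intervals with scipy 1.17.1 and plots with matplotlib 3.10.9. Named genes were both members, every gene the authors name beside a window peak, members of the SP100 and PML lists with a peak inside or within 2 kb, protein-coding RefSeq genes nearest to a window peak, and the 5 genes most like C130026I21Rik in numbers of peaks, ties broken by highest WT H3K27ac score. Gm18342, Rpl19-ps1, A530040E14Rik, Gm7609, Sp100, Sfi1 and the dendritic cell markers Csf2ra, Itgax, Cd74 and Zbtb46 were named outside this rule, after their values were seen. Members, lists and comparisons were chosen with earlier results of these data known.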

Additional observations from a re-analysis of the deposited data

How the results depend on the processing

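With 1 library per group no replicate could be left out. No paired analysis was possible because each group has a single library. Of 58 recomputed values 30 stayed close to the value reported (a count within 1.5 times, a share inside its interval), and 28 moved, with no median difference changing sign. Overlap of at least 50% of both peaks, centres within 100 bp or a gap of at most 1 kb left each of the 4 window shares as it was. Peaks with p at or below 0.01 numbered 3 (WT H3K27ac), 2 (KO H3K27ac) and 5 (EGR1) in the window, and 3, 2 and 4 inside C130026I21Rik or Gm2619. The 5 include the EGR1 peak with a score of 2.22, whose p of 0.01 is rounded and may lie above the limit. At a score of 3 or more the numbers were 3, 0 and 2 in both sets. The limits on score and on p are not separate checks, since p is lower at higher scores. RefSeq coordinates gave 6, 3 and 6 peaks in the genes. The 15 against 7 of WT and KO H3K27ac peaks was thus 3 against 2 at p of 0.01 or lower. Merged within 10 kb, the WT H3K27ac peaks formed 7 loci, the KO peaks 6 and the EGR1 peaks 9. Within 5 kb WT H3K27ac had 13, and within 50 kb WT H3K27ac and EGR1 had 3 each and KO had 4, so the order of WT and KO H3K27ac turned. At a WT or EGR1 score of 3 or more, the share overlapping was 100% in WT H3K27ac against KO, EGR1 against WT H3K27ac and EGR1 against KO. With p at or below 0.01 in both lists it was 66.7% of WT H3K27ac against KO and 100% of KO against WT. For EGR1 against WT H3K27ac it was 60.0%, with the peak of rounded p counted. KO had no window peak at a score of 3 or more, so that share has no value. The median score difference, KO minus WT, was -1.06 over the 3 peaks with a WT score of 3 or more and -0.785 inside the genes, and the length difference inside the genes was -21.5 bp. The EGR1 minus WT H3K27ac length difference moved from -8 to -14 bp at a WT score of 3 or more. Apart from fewer peaks under a stricter threshold, the cause was not tested.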

Other observations

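Counted in bins of 1 Mb, 499 bins held a peak in any list, and 4 held more WT H3K27ac peaks than the bin of this cluster. The difference between WT and KO H3K27ac was 8 peaks here and at most 5 in another bin, at 75 Mb on chromosome X (26 against 21). Bins at 47 Mb on chromosome 6 (13 against 9) and at 15 Mb on chromosome 5 (11 against 7) differed by 4. In the opposite direction KO exceeded WT by 7 at 3 Mb on chromosome 9 (61 against 54) and at 90 Mb on chromosome Y (38 against 31). On chromosome 1 as a whole WT H3K27ac listed 61 peaks, KO H3K27ac 49 and EGR1 62. The bins were chosen after the data were seen and were not tested. The window of this cluster was selected on its numbers of peaks in these lists, so its place among the bins follows from the selection.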
